A study of Schizosaccharomyces pombe with 6 samples.

Results

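The nuclear tRNA genes of fission yeast (Schizosaccharomyces pombe) were examined for Rad52 signal by their position on the chromosome and by the genes and sequences beside them. They were the genes annotated as tRNA in the ASM294v3 assembly on chromosome II, chromosome III and chromosome I up to 3.7 Mb, 151 of 10719 annotated genes in that part of the genome. The 20 tRNA genes further along chromosome I were not analysed here, because the array coordinates and the assembly were out of register there. With at least 2 probes within 500 bp, 116 tRNA genes were measured, 36 on chromosome I, 46 on chromosome II and 34 on chromosome III. All 35 that were not measured lie in the centromeric regions of chromosomes II and III, where only 13 of 48 members could be measured. The 103 members outside the centromeric regions were all measured.

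By their labels, cells of the Δrad3 group (3 arrays) lacked rad3, which encodes a checkpoint kinase of the ATR family. Those of the WT group (3 arrays) were labelled as wild type. Both groups shared the cdc25-22 background, a temperature-sensitive allele of the gene for the mitotic phosphatase Cdc25, and both were held for 4 h at 36.5 °C and released at 25 °C. Both were given 6 mM hydroxyurea, an inhibitor of ribonucleotide reductase that slows replication forks, and were collected 60 min after release, in early S phase. On each array, DNA recovered with Rad52 (IP) was compared with input DNA, and a level is the mean log2 IP/input of the probes in a window, with the array median at 0. A control IP was not part of these arrays, and unspecific recovery is therefore included in every level. Nothing in the labels places the replicates in separate cultures, so the errors measure the spread between these arrays only. The labels of WT replicate 3 and of all Δrad3 samples describe RNA extraction and hydroxyurea added 10 min after release, whereas those of WT replicates 1 and 2 describe chromatin immunoprecipitation and give no such delay.

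Of 33 probes inside rad3, 9 had an input signal not well above background on each Δrad3 array. In WT that number was 0 for replicates 1 and 3 and 24 for the library labelled WT replicate 2. The mean log2 input over these probes, with the array median at 0, was -1.63, -1.85 and -1.65 on the Δrad3 arrays. On the WT arrays it was -0.21, -4.53 and -0.32. The library labelled WT replicate 2 thus went against its label at rad3. Some results that rest on it are given with and without it, and the others include it. The input signal stood above local background by a median factor of 6.53 to 12.9 on the Δrad3 arrays and 5.04 to 20.01 on the WT arrays. Correlations between arrays over all genes were 0.161 to 0.741.

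Transfer RNA genes are short genes transcribed by RNA polymerase III. They hold promoter elements inside the gene, an A box and a B box bound by the factor TFIIIC. This factor places TFIIIB just upstream, and transcription ends at a run of T. In yeasts they are known as places where replication forks slow or pause, and in fission yeast the tRNA genes that flank the centromeres bound heterochromatin. Rad52 is a recombination protein that anneals complementary single strands of DNA.

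Sequences are shown for the locus with the highest level in both strains (SPATRNAARG.01), for the pair with the second highest level in WT (sup9 and imt07), for the gene with the lowest adjusted p of a difference between strains (SPBTRNAGLU.08), for a locus with nearly equal means in both strains (SPATRNAPRO.01) and for the lowest 2 loci (scn1 and SPBTRNAGLY.03). Each runs from 60 bases before the gene to 30 bases after it on the gene's own strand, from the RefSeq ASM294v3 sequence. They lie at chrI:3442995-3443174, chrIII:1689653-1689918, chrII:4107579-4107740, chrI:365095-365256, chrI:3157370-3157531 and chrII:180964-181124, the last on the reverse strand. Capitals mark TATA before the gene, the B box within it (GGTTCGA, any 2 bases, then CC) and TTTTT after it.
SPATRNAARG.01: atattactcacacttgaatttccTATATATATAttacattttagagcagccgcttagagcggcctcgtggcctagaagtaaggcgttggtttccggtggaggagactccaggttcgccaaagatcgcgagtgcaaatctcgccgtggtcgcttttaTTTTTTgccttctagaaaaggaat
sup9 and imt07: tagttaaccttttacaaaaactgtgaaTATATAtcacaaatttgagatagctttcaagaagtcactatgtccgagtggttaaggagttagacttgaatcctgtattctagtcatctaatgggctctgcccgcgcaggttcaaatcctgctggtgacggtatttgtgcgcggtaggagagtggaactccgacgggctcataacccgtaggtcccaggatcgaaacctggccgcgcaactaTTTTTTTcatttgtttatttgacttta
SPBTRNAGLU.08: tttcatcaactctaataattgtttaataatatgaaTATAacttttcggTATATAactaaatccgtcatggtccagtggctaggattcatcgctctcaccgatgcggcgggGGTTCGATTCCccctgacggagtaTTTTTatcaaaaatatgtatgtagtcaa
SPATRNAPRO.01: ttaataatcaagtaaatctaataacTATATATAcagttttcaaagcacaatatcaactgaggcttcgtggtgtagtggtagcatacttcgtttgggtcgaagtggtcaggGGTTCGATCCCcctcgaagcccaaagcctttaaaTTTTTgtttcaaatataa
scn1: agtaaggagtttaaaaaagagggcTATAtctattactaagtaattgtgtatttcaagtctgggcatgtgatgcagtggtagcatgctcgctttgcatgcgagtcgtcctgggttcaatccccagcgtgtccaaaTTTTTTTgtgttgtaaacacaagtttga
SPBTRNAGLY.03: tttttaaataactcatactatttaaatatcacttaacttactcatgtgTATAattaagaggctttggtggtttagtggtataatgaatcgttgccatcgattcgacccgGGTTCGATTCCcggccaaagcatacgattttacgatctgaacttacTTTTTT

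On the gene's own strand, TATA stood in the 60 bases before 122 of 151 tRNA genes (80.8%), against 37.9% of the same windows before 4345 coding genes. The exact B box letters stood in 84 tRNA genes (55.6%) and in the first 73 bases of 0 coding genes, and TTTTT stood in the 30 bases after 142 tRNA genes (94.0%), against 14.7% of coding genes. Measured genes with the exact B box averaged 0.455 in Δrad3 and 0.512 in WT (n = 68), and those without it 0.433 in Δrad3 and 0.425 in WT (n = 48). The printed sequences show TATA and TTTTT at the highest and at the lowest loci alike, and the exact B box letters at SPBTRNAGLY.03 but not at SPATRNAARG.01. The 151 genes held only 67 distinct sequences, and 113 members had an identical copy elsewhere among them, so a probe over the gene body can bind DNA of its copies. A probe overlapped 59 members.

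In the median, the tRNA genes stood above the genome as a whole on every array. Their median level was 0.37, 0.46 and 0.48 on the Δrad3 arrays, against 0.39, 0.46 and 0.58 on the WT arrays, whereas the median over all 10390 genes tested lay between -0.03 and 0.02. The level was above 0 on all 6 arrays for 80 of 116 tRNA genes (69%), against 12.8% of all genes, and above 0.5 on all 6 arrays for 14 (12.1%), against 0.375% of all genes. No tRNA gene was below 0 on all 6 arrays.

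Enrichment was called in a limma fit over all genes where the Benjamini-Hochberg adjusted p was under 0.05 and the mean level at least 0.5. By this rule 37 tRNA genes (31.9%) were enriched in Δrad3, where 3.12% of all genes were called, and 55 (47.4%) in WT, where 4.08% of all genes were called. Both strains shared 30 of these genes, 7 were called only in Δrad3 and 25 only in WT, and 54 in neither. Over all genes, 110 were called in both strains, 214 only in Δrad3 and 314 only in WT. With the replicate number as a block, 11 tRNA genes were called only in Δrad3 and 16 only in WT, beside 340 and 342 of all genes. A call in 1 strain alone does not show a difference between strains. Neighbouring tRNA genes can share probes, so the counted tRNA genes are not all separate measurements. The counts rested on single arrays and on the variance estimate: without replicate 3, 2 or 1 of Δrad3, the Δrad3 count was 0, 6 or 10, and without WT replicate 3 the WT count was 11. Leaving out the library labelled WT replicate 2 gave 50 in Δrad3 and 38 in WT. Counts over all genes without single arrays are not given here, so these moves are not read as particular to tRNA genes. Other settings that moved a count by more than 1.5 times were normexp background correction (0 in WT), a trended and robust variance (2 in Δrad3 and 0 in WT), an A+T correction (18 in Δrad3) and arrays scaled to 1 spread (59 in Δrad3). The counts over all genes moved too, to 0 in WT with normexp, 103 in Δrad3 and 0 in WT with the trended variance, 172 in Δrad3 with the A+T correction and 770 in Δrad3 with 1 spread, against 324 in Δrad3 and 424 in WT in the fit used. In 1-kb bins, 17 of 117 bins that overlap a tRNA gene were enriched in Δrad3, against 2.1% of all bins, and 38 in WT, against 3.48% of all bins. By limma 0 of these bins differed between strains, beside 0.0682% of all bins higher and 0% lower in Δrad3, with 5 higher and 3 lower at an unadjusted p under 0.05, 6.84% of these bins beside 7.48% of all bins.

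**Figure D1:**
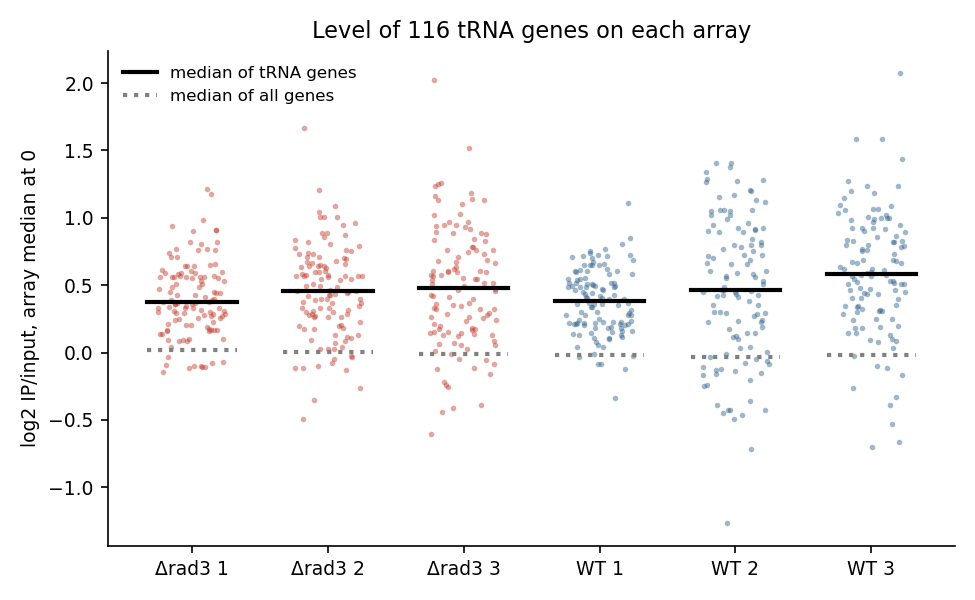
Level (log2 IP/input, array median at 0) of 116 tRNA genes on each of the 3 Δrad3 arrays and 3 WT arrays, 1 point per gene, with horizontal lines for the median of tRNA genes and of all genes. The tRNA medians of 0.37 to 0.58 lie above the medians of all genes on each array.

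The raised signal was narrow. Around 90 single tRNA genes outside the centromeric regions, probes 0 to 500 bp before the gene start averaged 0.51 ± 0.06 in Δrad3 and 0.47 ± 0.11 in WT (SD over 3 arrays each). Probes 0 to 500 bp after the start averaged 0.39 ± 0.04 in Δrad3 and 0.43 ± 0.07 in WT. At 500 to 1000 bp before the start the means were 0.22 ± 0.10 in Δrad3 and 0.08 ± 0.12 in WT, and at 500 to 1000 bp after it 0.15 ± 0.04 in Δrad3 and 0.06 ± 0.08 in WT. From 1 to 5 kb on either side they were between 0.00 and 0.12 in Δrad3 and between -0.01 and 0.13 in WT. At 962 coding genes, 1 in 4 of those more than 5 kb from any tRNA gene, the probes 0 to 500 bp before the start averaged 0.04 in Δrad3 and -0.10 in WT.

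**Figure D2:**
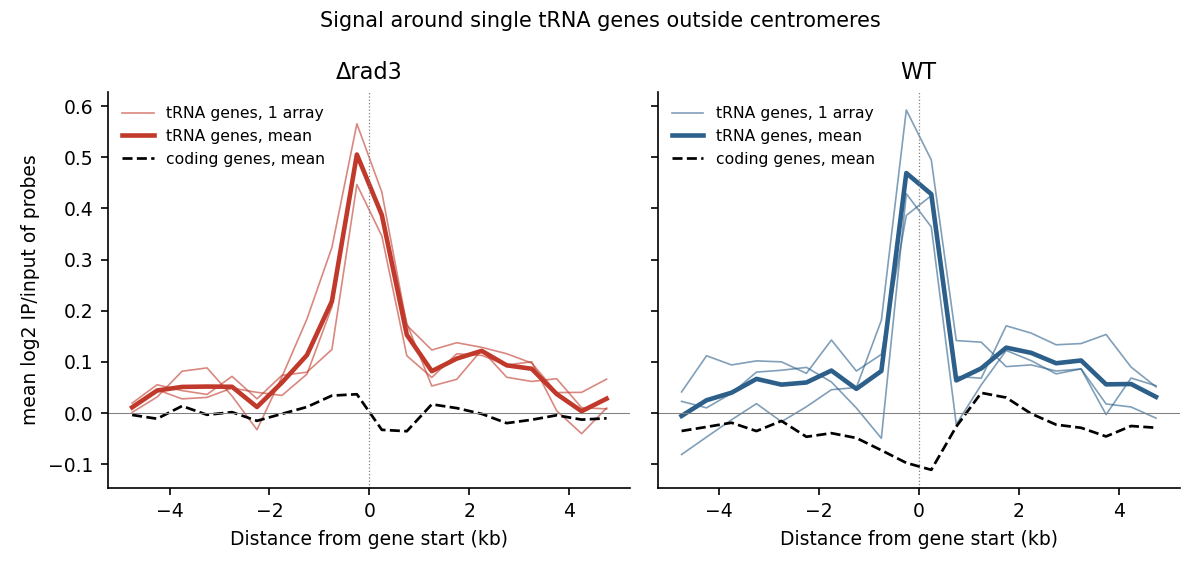
Mean log2 IP/input of probes in 500-bp steps by distance (kb) from the start of 90 single tRNA genes outside the centromeric regions, turned so that transcription runs to the right, for Δrad3 (left) and WT (right). Thin lines are single arrays, the thick line their mean and the dashed line 962 coding genes; the peak at the gene start reaches 0.51 in Δrad3 and 0.47 in WT and is gone within about 1 kb.

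To take out raised stretches of a chromosome, the mean of the probes 2 to 5 kb away was subtracted, which gave a local excess for 113 tRNA genes. In this measure 34 tRNA genes (30.1%) were enriched in Δrad3, against 3.75% of all genes, and 30 (26.5%) in WT, against 3% of all genes. Both strains shared 22 of them, beside 89 of all genes. The local excess was above 0 on all 6 arrays for 66 of the 113 tRNA genes (58.4%), against 10.1% of all genes. The median local excess over tRNA genes was 0.32, 0.37 and 0.38 on the Δrad3 arrays, against 0.30, 0.26 and 0.52 on the WT arrays, beside medians over all genes of -0.03 to 0.02. An A+T correction lowered the Δrad3 count to 16, and normexp background correction lowered the WT count to 10. Counts over all genes under these settings are not given here, so these drops are not read as particular to tRNA genes.

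Coding genes next to tRNA genes share probes with them, and the part of those probes in the following shares was not tested. A tRNA gene lay within 500 bp of 84 of 4288 coding genes (1.96%), and 3.57% of these were enriched in Δrad3 and 13.1% in WT, against 1.07% in Δrad3 and 2.88% in WT of the coding genes without one. Their median level was 0.16 in Δrad3 and 0.18 in WT, below that of the tRNA genes themselves. A coding gene's level averages probes over its whole length and 500 bp on both sides. That window is longer than at a tRNA gene, so the medians are not measured alike.

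Other genes transcribed by RNA polymerase III, nearly all of them 5S rRNA genes, lay at similar levels in the median. They were 32 genes for 5S rRNA, the small RNA of the large ribosomal subunit, and snu6, which encodes the U6 spliceosomal RNA. Of these 33 genes, 13 (39.4%) were enriched in Δrad3 and 14 (42.4%) in WT. A tRNA gene lay within 500 bp of 6 of them, and among the other 27 there were 9 enriched in Δrad3 and 10 in WT. The median level of the 33 genes was 0.40, 0.48 and 0.79 on the Δrad3 arrays, against 0.42, 0.40 and 0.65 on the WT arrays. The level of snu6 alone was 0.33, 0.59 and 0.94 on the Δrad3 arrays, against 0.30, -0.74 and -0.13 on the WT arrays. No test compared these 33 genes with the tRNA genes. Genes for small nucleolar RNAs were raised as well, so a raised level was not particular to tRNA genes. Of 57 measured, 8 (14%) were enriched in Δrad3 and 12 (21.1%) in WT, against 3.12% and 4.08% of all genes. Their median level was 0.29, 0.27 and 0.15 on the Δrad3 arrays, against 0.40, 0.38 and 0.24 on the WT arrays.

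Joined across gaps of at most 1000 bp, the 151 tRNA genes formed 109 loci, 96 single genes and 13 clusters that hold 55 genes. Of the loci, 101 were measured, 92 single and 9 clusters, from 3 to 14 distinct probes each (median 4). Means over 3 arrays ran from -0.27 to 1.62 in Δrad3 and from -0.39 to 1.33 in WT, with a median SD between replicates of 0.15 in Δrad3 and 0.26 in WT. A share of loci carried little signal: 20 lay within 0.25 of 0 in both strains. At least 1 gene was called enriched at 33 of the 101 loci in Δrad3 and at 43 in WT. Single genes made up 29 of these loci in Δrad3 and 35 in WT, and clusters 4 and 8. All genes were not joined into loci, so no share over all genes stands beside these counts.

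**Figure D3:**
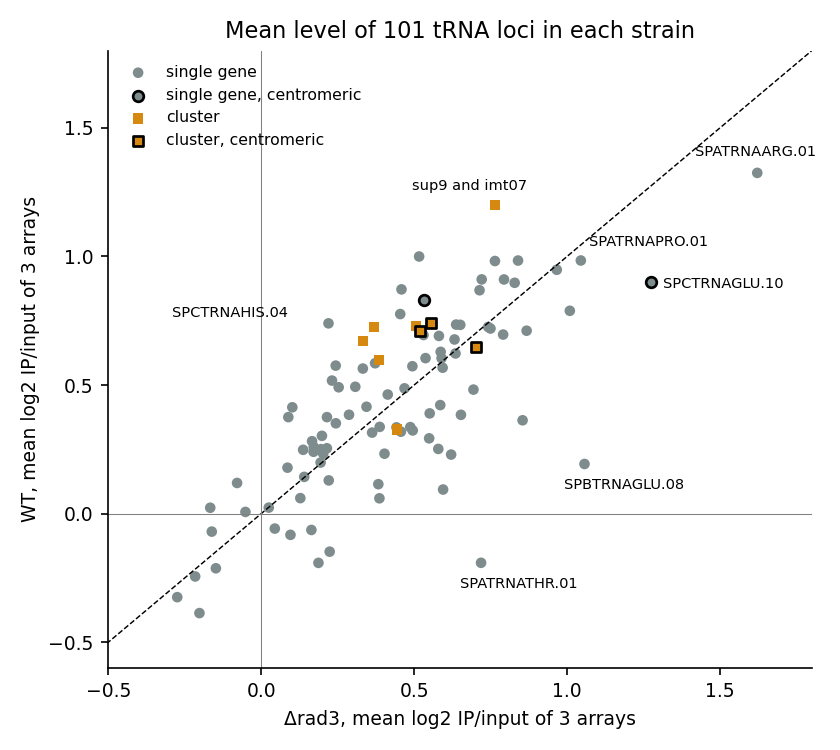
Mean level (log2 IP/input) of 101 tRNA loci in Δrad3 (horizontal) and WT (vertical), each over 3 arrays. Circles are single genes, squares are clusters, black outlines mark centromeric loci and the dashed line marks equal levels; SPATRNAARG.01 is highest in both strains, and SPBTRNAGLU.08 and SPATRNATHR.01 lie farthest to the Δrad3 side.

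SPATRNAARG.01, a gene for an arginine tRNA with 1 intron at chrI:3443055-3443144, had the highest level in both strains. It was 1.18, 1.67 and 2.03 on the Δrad3 arrays, against 0.85, 1.05 and 2.07 on the WT arrays. The groups overlapped, with replicate 3 highest in both, and the gene was enriched in both (limma adjusted p = 0.00646 in Δrad3 and 0.0109 in WT). It stands between pfd6, for a prefoldin subunit, and rpt5, for an ATPase of the proteasome, which point away from it at 735 and 786 bp. An AT-rich island, a mostly non-coding stretch whose 1000-bp windows hold at least 72% A+T, overlaps it.

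SPCTRNAGLU.10, a glutamate tRNA gene in the centromeric region of chromosome III, was next in Δrad3. Its level was 1.21, 1.09 and 1.52 on the Δrad3 arrays, against 1.11, 0.35 and 1.24 on the WT arrays. WT was low only on the library labelled WT replicate 2, and the Δrad3 minus WT difference was 0.37 with that library and 0.10 without it. SPATRNAPRO.01, a proline tRNA gene also overlapped by an island, had 0.90, 1.20 and 1.03 on the Δrad3 arrays and 0.61, 1.15 and 1.19 on the WT arrays. The strains overlapped, with WT replicate 1 lowest, and it was enriched in both (limma adjusted p = 0.00469 in Δrad3 and 0.00609 in WT).

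Several of the highest loci had no island within 2 kb. SPATRNAILE.02, an isoleucine tRNA gene next to cdc3, the profilin gene, had 0.77, 0.89 and 1.24 on the Δrad3 arrays and 0.65, 0.92 and 1.27 on the WT arrays. imt06, one of the genes for the methionine tRNA that starts translation, had 0.81, 0.96 and 1.26 on the Δrad3 arrays and 0.55, 0.90 and 0.92 on the WT arrays. Both were enriched in both strains, and in both the strains overlapped. SPBTRNAGLY.09, a glycine tRNA gene overlapped by an island, averaged 0.87 ± 0.15 in Δrad3 and 0.71 ± 0.24 in WT (SD, n = 3 arrays each) and was enriched in both.

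SPATRNATYR.01, a tyrosine tRNA gene, is the only measured single member that lies inside a coding gene, dal81. Its level was 0.94, 0.44 and 1.18 on the Δrad3 arrays, against 0.22, 0.30 and 0.57 on the WT arrays, and it was enriched in Δrad3 (limma adjusted p = 0.0155) and not called in WT (adjusted p = 0.114). The strains overlapped, and the difference did not pass (limma adjusted p = 0.536).

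In WT the second highest locus was the pair sup9 and imt07, a serine and an initiator methionine tRNA gene that follow each other on one strand. Their shared probes gave 0.59, 0.57 and 1.13 on the Δrad3 arrays and 0.60, 1.41 and 1.59 on the WT arrays. The pair was enriched in WT (limma adjusted p = 0.00830) and just missed the threshold in Δrad3 (0.0515), and the strains overlapped. A cluster of the same kind, SPATRNASER.01 and SPATRNAMET.01 on chromosome I, lay lower, at 0.51 ± 0.22 in Δrad3 and 0.73 ± 0.24 in WT (SD, n = 3 arrays each). It was the only cluster among the loci of chromosome I.

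Others among the highest in WT stood beside 5S rRNA genes. SPCTRNAASN.06, an asparagine tRNA gene 150 bp from SPRRNA.06, had 0.39, 0.56 and 0.60 on the Δrad3 arrays and 0.74, 0.82 and 1.44 on the WT arrays. Every WT array was above every Δrad3 array, but the difference of -0.48 did not pass (limma adjusted p = 0.534). SPBTRNAASN.02, 176 bp from SPRRNA.39, averaged 0.84 ± 0.07 in Δrad3 and 0.98 ± 0.35 in WT, and SPBTRNAASP.04, an aspartate tRNA gene 519 bp from SPRRNA.36, averaged 0.76 ± 0.19 in Δrad3 and 0.98 ± 0.25 in WT (SD, n = 3 arrays each). SPCTRNASER.13, a serine tRNA gene beside the ammonium transporter gene amt1 and with no such neighbour, averaged 0.72 ± 0.19 in Δrad3 and 0.91 ± 0.24 in WT.

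At the other end, 5 single loci had the lowest mean over all arrays. scn1, an alanine tRNA gene (SPATRNAALA.03) beside peg1, had -0.09, -0.13 and -0.61 on the Δrad3 arrays and 0.11, -0.43 and -0.66 on the WT arrays. SPBTRNAGLY.03, a glycine tRNA gene, had 0.14, -0.35 and -0.39 on the Δrad3 arrays and -0.04, -0.42 and -0.70 on the WT arrays. Values fell on both sides of 0, and neither locus was called. SPCTRNASER.12, SPBTRNAPHE.03 and SPBTRNAPRO.04 averaged -0.22, -0.15 and -0.16 in Δrad3 and -0.24, -0.21 and -0.07 in WT. Leaving out the library labelled WT replicate 2 gave WT means of -0.15, 0.04 and 0.13, so the last 2 turned sign. None of these 5 had an island within 2 kb.

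**Figure D4:**
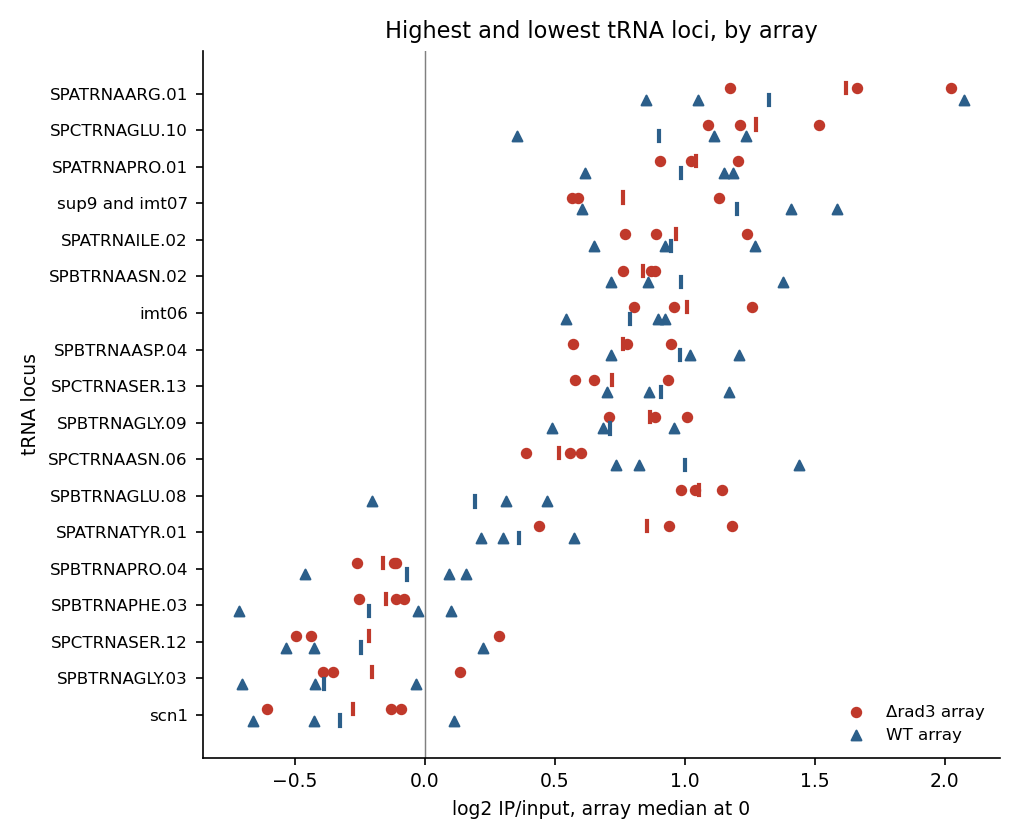
Level (log2 IP/input) of the tRNA loci that ranked highest in either strain and of the 5 lowest, with 1 circle per Δrad3 array, 1 triangle per WT array and short bars for the means. The strains overlap at most loci; at SPBTRNAGLU.08 the 3 Δrad3 arrays (0.99 to 1.14) lie above the 3 WT arrays (-0.20 to 0.47).

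The central comparison between strains was whether Rad52 at tRNA genes differed without rad3. By limma with Benjamini-Hochberg adjustment over all genes, 0 tRNA genes were higher and 0 lower in Δrad3 than in WT, and the share of all genes called was 0% in both directions. At an unadjusted p under 0.05, 5 tRNA genes were higher and 5 lower, 8.62% of those measured, beside 8.78% of all genes. With the replicate number as a block, which takes same-numbered arrays as pairs, limma called 0 tRNA genes different, beside 75 of all genes higher and 0 lower in Δrad3. At an unadjusted p under 0.05 that fit had 5 tRNA genes higher and 12 lower, 14.7% of those measured, beside 13.4% of all genes. Without the block, the lowest adjusted p of a tRNA gene was 0.173, and the median standard error of a difference was 0.18. All 3 Δrad3 arrays lay above all 3 WT arrays at 6 tRNA genes (5.17%), against 9.72% of all genes, and below them at 8 (6.9%), against 5.79% of all genes.

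The locus with the lowest adjusted p was SPBTRNAGLU.08, a glutamate tRNA gene at chrII:4107639-4107710 overlapped by an AT-rich island, 1650 bp from mug147. Its level was 0.99, 1.04 and 1.14 on the Δrad3 arrays, against 0.47, -0.20 and 0.31 on the WT arrays. Every Δrad3 array was above every WT array, and the gene was enriched in Δrad3 (limma adjusted p = 0.00469) and not in WT (0.327). The Δrad3 minus WT difference was 0.86 with a standard error of 0.19 (limma adjusted p = 0.173). Leaving out the library labelled WT replicate 2 gave 0.67 (limma adjusted p = 0.126), and the replicate number as a block gave limma adjusted p = 0.0631, so it passed in none of the 3 fits.

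SPATRNATHR.01, a threonine tRNA gene, had the largest difference, 0.91. Its level was 0.58, 0.60 and 0.97 on the Δrad3 arrays, against 0.16, -1.27 and 0.53 on the WT arrays. The strains did not overlap, but the library labelled WT replicate 2 was far below the other arrays, and without it the difference was 0.37. spl1, a proline tRNA gene, had 0.56, 0.60 and 0.62 on the Δrad3 arrays and 0.18, -0.05 and 0.15 on the WT arrays. The strains did not overlap there, and the difference of 0.50 was 0.43 without that library (limma adjusted p = 0.330 with it). SPATRNATHR.04, between the genes rrp41 of the exosome and tif211 of initiation factor eIF2, averaged 0.62 ± 0.23 in Δrad3 and 0.23 ± 0.47 in WT (SD, n = 3 arrays each), and the strains overlapped. Its difference of 0.39 was 0.20 without that library, where the WT mean was 0.42.

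In the other direction SPCTRNAHIS.04, a histidine tRNA gene, had 0.24, 0.29 and 0.13 on the Δrad3 arrays and 0.28, 1.12 and 0.83 on the WT arrays. The lowest WT array lay just under the highest Δrad3 array. Its difference of -0.52 was -0.33 without the library labelled WT replicate 2 (limma adjusted p = 0.525 with it). SPCTRNAGLY.12 averaged 0.46 ± 0.10 in Δrad3 and 0.87 ± 0.36 in WT, and the cluster SPBTRNAGLY.05 and SPBTRNAARG.04 averaged 0.37 ± 0.28 in Δrad3 and 0.72 ± 0.15 in WT (SD, n = 3 arrays each). SPATRNAMET.02 averaged 0.45 ± 0.15 in Δrad3 and 0.78 ± 0.17 in WT, and each of its Δrad3 arrays was below every WT array. At SPCTRNAGLY.12 the difference of -0.41 was -0.25 without that library. None of these 4 loci passed the test of the difference.

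In local excess 0 tRNA genes differed between strains by the same limma test, beside 0.183% of all genes higher and 0.00964% lower in Δrad3, and at an unadjusted p under 0.05 there were 7 higher and 5 lower, 10.6% of tRNA genes beside 11.2% of all genes. With the replicate number as a block, 1 did, where 288 of all genes were called: SPBTRNAHIS.02, a histidine tRNA gene named here after its values were seen. Its local excess was 0.07 ± 0.30 in Δrad3 and 0.81 ± 0.22 in WT (SD, n = 3 arrays each), with limma adjusted p = 0.131 without the block and 0.0243 with it. Its level itself was 0.63 ± 0.11 in Δrad3 and 0.68 ± 0.42 in WT.

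Clusters lay above single genes in the mean, by an amount that varied among arrays. Single loci averaged 0.43 ± 0.06 in Δrad3 and 0.41 ± 0.09 in WT (n = 92), and clusters 0.51 ± 0.09 in Δrad3 and 0.71 ± 0.20 in WT (n = 9, SD over 3 arrays). The single minus cluster difference was -0.12, -0.19 and 0.05 on the Δrad3 arrays, against -0.12, -0.45 and -0.31 on the WT arrays. It was thus negative on 5 of 6 arrays and near its own spread (-0.19 ± 0.18, SD over 6 arrays), at -0.14 without the library labelled WT replicate 2. All 9 clusters were above 0 on all 6 arrays, as were 58 of 92 single loci. In local excess the difference was -0.20, -0.16 and -0.03 on the Δrad3 arrays, against -0.11, -0.14 and -0.21 on the WT arrays. Outside the centromeric regions 6 clusters were left. Their level was above that of single genes by 0.05 ± 0.11 in Δrad3 and 0.31 ± 0.15 in WT, and higher on 5 of 6 arrays. Their local excess was 0.02 ± 0.09 above that of single genes in Δrad3 and 0.07 ± 0.05 above it in WT (SD over 3 arrays).

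Centromeric loci were defined on chromosomes II and III only. Of these 13 loci, 5 were measured, and they lay high. They averaged 0.72 ± 0.03 in Δrad3 and 0.77 ± 0.18 in WT, above single loci elsewhere by 0.35, 0.33 and 0.22 on the Δrad3 arrays and by 0.23, 0.48 and 0.39 on the WT arrays. The cluster with the most genes, 12 from SPBTRNAASN.01 to SPBTRNAASP.05 beside rpb1 (the largest subunit of RNA polymerase II), had only 4 probes and levels of 0.86, 0.68 and 0.56 on the Δrad3 arrays and 0.44, 0.91 and 0.59 on the WT arrays. The 7 genes from SPCTRNAALA.12 to SPCTRNALEU.11, on the left side of centromere III next to the checkpoint kinase gene chk1, had 14 probes and levels of 0.47, 0.56 and 0.63 on the Δrad3 arrays and 0.40, 1.02 and 0.80 on the WT arrays. In both clusters the strains overlapped. Most centromeric tRNA genes had under 2 probes, so the 5 measured loci do not stand for all 13. Near a chromosome end (within 150 kb), 3 loci averaged 0.36 ± 0.05 in Δrad3 and 0.25 ± 0.05 in WT.

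Loci beside an AT-rich island were higher in the mean than the rest on all 6 arrays. The 26 single loci with an island within 2 kb averaged 0.63 ± 0.11 in Δrad3 and 0.61 ± 0.19 in WT, and the 66 without one 0.35 ± 0.04 in Δrad3 and 0.33 ± 0.08 in WT. The difference was 0.18, 0.33 and 0.33 on the Δrad3 arrays, against 0.08, 0.40 and 0.36 on the WT arrays. The windows held 69.9% A+T with an island and 67.8% without. Level correlated with A+T over the 92 single loci at 0.31 to 0.36 on the Δrad3 arrays and at 0.09 to 0.35 on the WT arrays, as a description over loci that share arrays. With an A+T correction of each array the difference averaged 0.25 over arrays, against 0.28 before it. In local excess it averaged 0.18. The island overlapped the tRNA gene at 20 of the 26 loci, which averaged 0.67 ± 0.12 in Δrad3 and 0.64 ± 0.21 in WT. At single genes without an island the peak remained: the probes 0 to 500 bp before the start of 65 such genes averaged 0.41 in Δrad3 and 0.39 in WT.

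The orientation of the nearest coding genes went with the level as well. Between coding genes that converge on the tRNA gene, 13 single loci, 2 of them centromeric, averaged 0.58 ± 0.08 in Δrad3 and 0.70 ± 0.17 in WT, and all 13 were above 0 on all 6 arrays. Between tandem genes 40 loci averaged 0.41 ± 0.04 in Δrad3 and 0.42 ± 0.10 in WT, and between divergent genes 38 loci averaged 0.38 ± 0.06 in Δrad3 and 0.30 ± 0.09 in WT. The convergent minus divergent difference was 0.19, 0.18 and 0.22 on the Δrad3 arrays, against 0.22, 0.57 and 0.40 on the WT arrays. Among loci without an island it was 0.32 ± 0.05 in Δrad3 and 0.59 ± 0.29 in WT (SD over 3 arrays, 8 against 26 loci). Over all single loci but without the library labelled WT replicate 2 it averaged 0.24 over 5 arrays. In local excess it was 0.09 ± 0.04 in Δrad3 and 0.24 ± 0.04 in WT. The 500 bp before coding genes far from tRNA genes averaged 0.04 in Δrad3 and -0.10 in WT, and the part of coding gene starts in the difference between orientations was not tested.

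**Figure D5:**
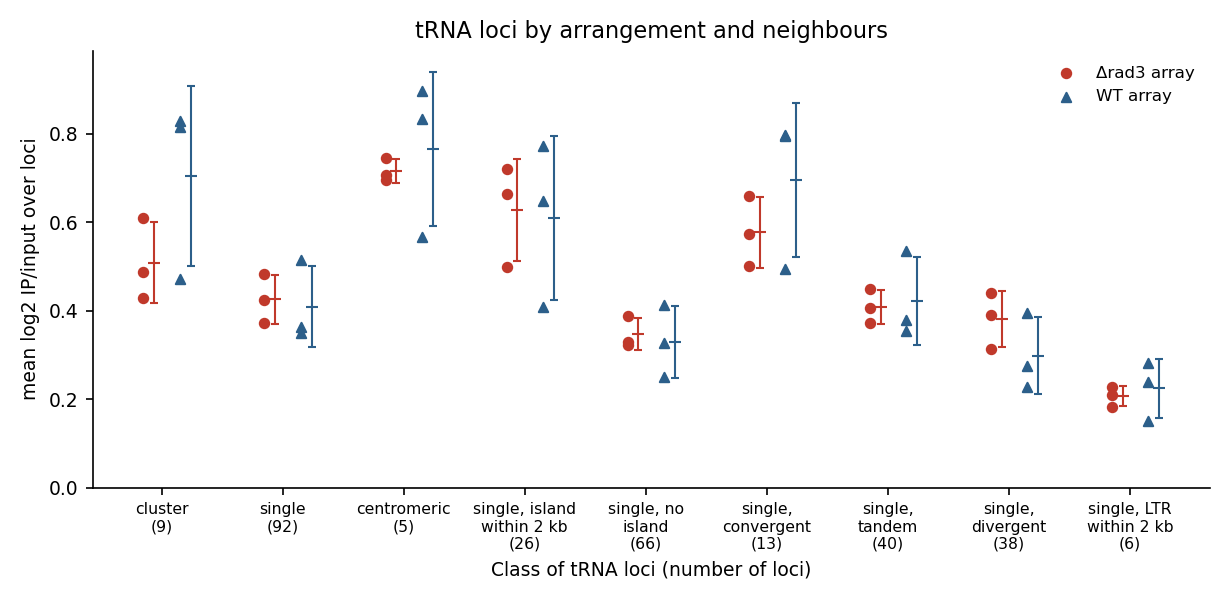
Mean level (log2 IP/input) over the loci of each class on the 3 Δrad3 arrays (circles) and the 3 WT arrays (triangles), with the mean and SD over arrays beside them and the number of loci in brackets. Among the 9 classes plotted, the means of clusters, centromeric loci, loci near an AT-rich island and loci between convergent genes lie at 0.51 to 0.77, and those of loci near an LTR at 0.21 in Δrad3 and 0.22 in WT.

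Long terminal repeats (LTRs) are left by Tf retrotransposons, which in fission yeast favour promoters of genes read by RNA polymerase II. The 6 single loci with an LTR within 2 kb averaged 0.21 ± 0.02 in Δrad3 and 0.22 ± 0.07 in WT, and the 86 without one 0.44 ± 0.06 in Δrad3 and 0.42 ± 0.09 in WT. The difference, LTR minus no LTR, was -0.17, -0.21 and -0.32 on the Δrad3 arrays, against -0.12, -0.23 and -0.25 on the WT arrays. The 10 single loci with another RNA gene within 1 kb, a 5S rRNA gene in each case, averaged 0.55 ± 0.10 in Δrad3 and 0.63 ± 0.16 in WT, against 0.41 ± 0.05 in Δrad3 and 0.38 ± 0.09 in WT for the other 82. The difference was 0.12, 0.08 and 0.21 on the Δrad3 arrays, against 0.31, 0.12 and 0.32 on the WT arrays, above 0 on all 6. These classes overlap and are small, and the differences are descriptions over arrays that share their probes.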

How the data were processed

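Rad52 ChIP and input DNA were compared on 2-colour Agilent tiling arrays (45220 spots, 42707 probes). Per the labels, input was in the 647 channel and IP in the 555 channel on all 6 arrays, and dye bias was then not balanced within a strain. The series text speaks of reciprocal labelling, which differs from the labels, and levels were computed with the dyes as labelled. The authors scanned the arrays with Agilent Feature Extraction 10.7.3.1, per the submitters' processing notes, and the deposited intensity columns hold background-subtracted, dye-normalized signals per the file headers. The deposited log10 ratio (red over green) matched the processed signals for at least 99.9% of probes on each array. The array build in the headers is Spombe:NCBI:Feb2002. In 106 of 106 windows of 100000 bp used here, probe length tracked ASM294v3 base composition best at a shift of at most 20 bp, against 1 of 18 on chromosome I beyond 3.7 Mb.

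From these, log2 IP/input was centred on each array's median, without loess or quantile steps. Control spots and outlier flags were left out, and probes needed input well above background on at least 3 arrays (42659 kept). Each window covered the gene and 500 bp on both sides, and was thus longer at longer genes. Windows of 10390 genes entered 1 limma 3.58.1 fit (R 4.3.3, tested on simulated data) with 4 residual degrees of freedom before moderation, adjusted by Benjamini-Hochberg. Descriptions were made in Python 3.11.15. No precision beyond the number of arrays can be given. Deviations of same-numbered arrays correlated at 0.561, 0.129 and 0.265 over genes, all over 0.1, so the replicate numbers were taken to pair the samples in an alternative fit. For replicate 2 this support was weak, as Δrad3 replicate 3 and WT replicate 2 correlated at 0.196. Classes of loci were described by array, without tests. Centromeric regions were II 1595000 to 1650000 and III 1060000 to 1145000. Loci were named by rule: the top 8 in each strain, the bottom 5 over all arrays, 5 in each direction by size of difference, the locus with most tRNA genes and the highest centromeric cluster of each chromosome, and the loci of SPATRNAARG.01, of sup9 and imt07, and of SPATRNAMET.02. The members, lists and rules were chosen with earlier results of these data known.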

Additional observations from a re-analysis of the deposited data

How the results depend on the processing

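No tRNA gene differed between strains in level under any of the 19 alternatives run. Leaving out 1 array at a time gave 0 to 50 enriched tRNA genes in Δrad3 and 11 to 59 in WT, 20 to 35 with local excess in Δrad3 and 23 to 43 in WT, medians of 0.42 to 0.47 in Δrad3 and 0.42 to 0.52 in WT, and single minus cluster differences of -0.24 to -0.14. Normexp background correction gave 0 enriched in WT, 10 with local excess in WT and a WT median of 0.21. Arrays scaled to 1 spread gave 59 enriched and a median of 0.51 in Δrad3, and an A+T correction gave 18 enriched, 16 with local excess and a median of 0.32 in Δrad3. A trended and robust variance gave 2 enriched in Δrad3 and 0 in WT, and 1-kb bins 17 in Δrad3. Windows of 250 bp gave medians of 0.50 in Δrad3 and 0.63 in WT and 48 with local excess in WT, and windows of 1000 bp a Δrad3 median of 0.37 and 18 with local excess in WT. The replicate block gave 50 enriched in Δrad3 and 55 in WT, beside 575 in Δrad3 and 577 in WT of all genes. It gave 1 difference in local excess among tRNA genes. It moved the calls in 1 strain only to 11 in Δrad3 and 16 in WT, and all genes called different in level to 75. The causes were not tested. Counts over all genes without single arrays, and in local excess under other corrections or windows, are not given here. Those moves are therefore not read as particular to tRNA genes. Island, convergent and centromeric loci stayed higher in the mean over arrays under all 16 alternatives run for each (0.18 to 0.32, 0.17 to 0.32 and 0.24 to 0.36), chosen after seeing the data. With 3 arrays a strain, the median standard error of a difference was 0.18, which limits what could be detected.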

Other observations

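Other tRNA features that the comparisons above did not use were set beside the level. Single genes on the forward strand averaged 0.48 ± 0.06 in Δrad3 and 0.49 ± 0.11 in WT (50 loci), and those on the reverse strand 0.36 ± 0.06 in Δrad3 and 0.31 ± 0.07 in WT (42 loci), a difference above 0 on all 6 arrays (0.15 ± 0.04, SD over arrays). In local excess the strand difference was 0.09 ± 0.05, with 0.0045 on the array of Δrad3 replicate 3. All arrays read the same loci, so this SD does not measure the spread between loci. Genes with an intron averaged 0.49 ± 0.11 in Δrad3 and 0.46 ± 0.11 in WT (19 loci), and those without one 0.41 ± 0.04 in Δrad3 and 0.40 ± 0.09 in WT (73 loci), but in local excess the difference was above 0 on only 3 of 6 arrays. By amino acid, the 3 single alanine loci averaged 0.14 ± 0.05 in Δrad3 and 0.00 ± 0.05 in WT (SD over arrays). The 4 single arginine loci, which include SPATRNAARG.01, averaged 0.79 ± 0.10 in Δrad3 and 0.76 ± 0.28 in WT. Both classes are small and uneven: means over all arrays ran from -0.30 to 0.50 among the alanine loci and from 0.39 to 1.47 among the arginine loci.

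Among genes of RNA polymerase III that are not tRNA genes, the 5S rRNA gene SPRRNA.54, named after its values were seen, had 1.23, 1.10 and 1.82 on the Δrad3 arrays and -0.11, -0.11 and 0.38 on the WT arrays. Its level did not differ by limma (adjusted p = 0.0912), while its local excess of 1.40 in Δrad3 and 0.17 in WT did (adjusted p = 0.0343). Of 6 tRNA genes whose identifier says aspartate, 5 are annotated with asparagine as their product, so no level is given for either class.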
